A study of Mus musculus with 6 samples.

Results

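The regulators of G protein signalling (Rgs genes) were described here through 9 listed genes of mouse peritoneal macrophages, Rgs1, Rgs2, Rgs3, Rgs10, Rgs12, Rgs14, Rgs16, Rgs18 and Rgs19, out of 24454 gene symbols in the deposited count table. They were found by symbol, and the transcript rows of a symbol were summed. The family was chosen by the LPS against vehicle fold change of Rgs2, which was among the furthest down, so the members' values against vehicle are given as a description without p-values. The 6 libraries were made from polyA-enriched RNA of primary macrophages in culture, taken from male wild-type C57BL6/J mice aged 6 to 8 weeks, and every group had 2 libraries. The SGA360+LPS group had 10 µM SGA360, which binds the aryl hydrocarbon receptor (AHR), for 1 h and then the endotoxin LPS at 10 ng/ml for 4 h. The LPS group had 10 ng/ml LPS for 4 h, its own treatment label naming no pretreatment, and the vehicle group had vehicle for 5 h. Nothing in the labels says that libraries of a group came from separate mice or cultures, so the spread between them may be technical.

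Chemokine, complement, purine and prostaglandin receptors of macrophages signal through heterotrimeric G proteins. An activated receptor loads the G alpha subunit with GTP, and signalling lasts until that GTP is hydrolysed. RGS proteins bind active G alpha subunits of the Gi and Gq classes and speed up the hydrolysis, which shortens the response of a cell to its attractants. Most members of the R4 subfamily (Rgs1, Rgs2, Rgs3, Rgs16 and Rgs18 here) are small proteins that consist of little more than the RGS domain. In the R12 subfamily, Rgs12 and Rgs14 carry further domains that bind Ras proteins and inactive G alpha subunits, while Rgs10 is small. Rgs19 belongs to the RZ subfamily.

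Total counts were from 7726973 to 9529817 per library. Vehicle replicate 1 stood apart: 10001 symbols were detected there and 12282 to 12643 in each of the remaining 5 libraries, and 4.92% of its counts lay on the ribosomal RNA gene Rn45s, against 0.220% to 0.684%. The members' folds against vehicle are therefore also given without it. Of 7 macrophage markers, 6 had counts, with the lysozyme gene Lyz2 from 18255 to 22237 CPM (counts per TMM-scaled library size), and Itgam was listed at 0 in every library. A marker at 0, here or in the lists below, therefore does not show that a cell type was absent. Of the 6 macrophage markers with counts, edgeR called 3 lower and 1 higher with LPS against vehicle. Among all genes 17.0% were called lower and 19.4% higher. Mertk was 4.41-fold, Fcgr1 5.24-fold and Csf1r 1.26-fold lower, and Adgre1 was 2.46-fold higher. Summed fibroblast markers lay at 5208 and 4737 CPM with SGA360+LPS, 4725 and 4418 CPM with LPS and 4680 and 5379 CPM in vehicle.

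Of the 9 listed genes, 7 passed the filter on low counts. Each of these 7 had at least 19 counts in every library. Rgs3 had 1 count in all, in SGA360+LPS replicate 2, and Rgs19 had 4 and 9 counts with SGA360+LPS, 6 and 2 with LPS and 0 and 7 in vehicle. Rgs3 has 4 transcript rows and Rgs19 has 7. Symbols with several rows held 1.87% of all counts although there were 5639 of them, so low counts do not show that either gene is unexpressed. A count of 0 allows up to 3 counts in a library, or 0.315 to 0.388 CPM at these depths, for counting error only.

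Levels of different genes were compared as CPM per kb of exon. In vehicle the order was Rgs10, Rgs1, Rgs2, Rgs14, Rgs18, Rgs12, Rgs16, Rgs19 and Rgs3. Rgs10 stood at 143 ± 13.4 CPM per kb, Rgs1 at 71.6 ± 1.64 and Rgs2 at 39.0 ± 7.10 (SD, n = 2). Rgs14 and Rgs18 followed with 13.6 ± 1.11 and 9.35 ± 0.676 CPM per kb. Rgs12 and Rgs16 (1.46 ± 0.755 and 1.18 ± 0.0918 CPM per kb in vehicle) overlapped between libraries, as did Rgs19 and Rgs3, and the other neighbours in the vehicle order did not.

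With LPS the order was Rgs10, Rgs1, Rgs14, Rgs2, Rgs16, Rgs18, Rgs12, Rgs19 and Rgs3. Rgs2 and Rgs16 (3.73 ± 0.780 and 3.60 ± 0.191 CPM per kb with LPS) overlapped there, and they were next to each other with SGA360+LPS too, at 4.36 ± 0.0329 and 2.54 ± 0.00928 CPM per kb. The summed level of the 9 genes was 138 and 141 CPM per kb with SGA360+LPS, 135 and 135 with LPS, and 293 and 266 in vehicle. Rgs10 made up 55.8% and 51.6% of that sum with SGA360+LPS, 55.1% and 48.5% with LPS, and 52.1% and 50.2% in vehicle. Rgs2 made up 3.15% and 3.11% with SGA360+LPS, 2.35% and 3.18% with LPS, and 15.0% and 12.8% in vehicle.

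**Figure D1:**
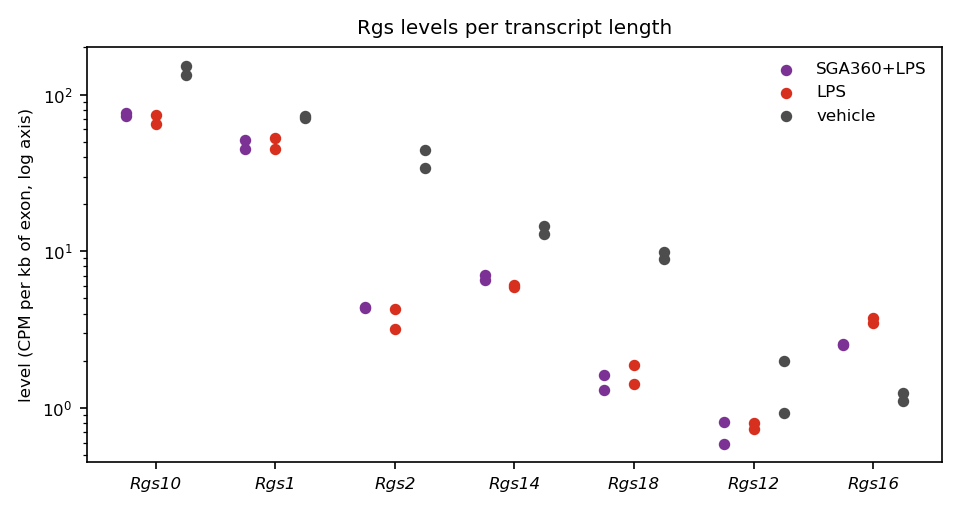
Level of the 7 tested Rgs genes per transcript length (CPM per kb of exon, log axis), with a point for each library and the groups SGA360+LPS, LPS and vehicle from left to right within a gene. In vehicle Rgs10 averaged 143 CPM per kb and Rgs16 1.18, and Rgs16 is the gene whose vehicle points lie below its LPS-treated ones.

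Rgs2 acts preferentially on Gq and is known as a cAMP-induced gene. It had 13.1 and 13.2 CPM with SGA360+LPS, 9.58 and 12.9 CPM with LPS, and 133 and 102 CPM in vehicle. All 4 LPS-treated libraries lay far below both vehicle libraries. The log2 fold change was −3.37 (SE 0.18) for LPS against vehicle, or 10.4-fold lower, and 21 of 9389 tested genes had a lower value. For SGA360+LPS against vehicle it was −3.16 (SE 0.17). Without vehicle replicate 1 these values were −3.15 and −2.94. These are libraries of bulk RNA, in which fewer cells of a type and less RNA per cell cannot be told apart. All 8 mesothelial markers had counts, and their summed level was also lower under LPS. It was 346 and 365 CPM with SGA360+LPS, 352 and 354 CPM with LPS and 517 and 491 CPM in vehicle. For LPS against vehicle edgeR called 3 of the 8 lower and 0 higher, where 17.0% of all genes were called lower and 19.4% higher. The log2 fold changes of all 8 were below 0, from −1.04 for Lrrn4 to −0.09 for Wt1. Lrrn4 averaged 167 CPM in vehicle and 81.2 CPM with LPS, and Wt1, which was not called, 115 and 109 CPM. The part of mesothelial cells in the Rgs values was not tested.

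The Rgs2 transcript (NM_009061, protein-coding) lies on chromosome 1, minus strand, between 143999338 and 144004149 in mm10. Its upstream sequence is shown because Rgs2 lies furthest below vehicle in the family, beside that of Rgs16, the tested member higher with LPS, and of Rgs10, the most abundant one. The 250 bases before each start site are from RefSeq on GRCm38.p6, the same assembly as mm10, and are written 5′ to 3′ on the gene's strand. The windows are chr1:144004150-144004399 (minus strand), chr1:153740103-153740352 (plus strand) and chr7:128418173-128418422 (minus strand). Capitals mark matches to the motifs searched.
Rgs2: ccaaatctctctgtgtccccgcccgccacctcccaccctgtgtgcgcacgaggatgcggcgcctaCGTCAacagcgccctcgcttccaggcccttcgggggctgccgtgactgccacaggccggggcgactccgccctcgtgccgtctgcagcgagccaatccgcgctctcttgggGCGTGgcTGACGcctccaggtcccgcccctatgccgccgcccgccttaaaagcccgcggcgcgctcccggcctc
Rgs16: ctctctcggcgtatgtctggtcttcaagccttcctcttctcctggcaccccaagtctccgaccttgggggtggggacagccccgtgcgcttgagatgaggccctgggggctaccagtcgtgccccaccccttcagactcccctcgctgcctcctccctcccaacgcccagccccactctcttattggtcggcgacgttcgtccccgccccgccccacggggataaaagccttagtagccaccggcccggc
Rgs10: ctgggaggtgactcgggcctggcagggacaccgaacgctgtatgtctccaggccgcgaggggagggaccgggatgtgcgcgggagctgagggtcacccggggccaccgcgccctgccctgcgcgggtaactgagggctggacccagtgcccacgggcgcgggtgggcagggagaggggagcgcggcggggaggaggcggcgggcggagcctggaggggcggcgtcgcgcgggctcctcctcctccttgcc

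The Rgs2 window held 2 matches to TGACG, the core of the cAMP response element, at 185 to 181 and 67 to 63 bases upstream on opposite strands. It also held 1 match to GCGTG, the core of the AHR element, at 74 to 70 bases upstream. Searched on both strands, TGACG occurred in 17.8% and GCGTG in 28.2% of 32851 promoter windows of this length, so neither is rare. None of the 3 windows held the full element TGACGTCA (1.55% of all windows, which also holds TGACG), the AP-1 motif TGANTCA (6.75%), the interferon-stimulated response element (2.98%) or the NF-kB motif (3.90%). The Rgs16 and Rgs10 windows held no match to any of the motifs. The windows were rich in G and C, with 72.4% for Rgs2, 66.4% for Rgs16 and 76.4% for Rgs10, against a median of 52.4% over all windows. Promoter entries were found for 6 of the 9 genes.

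Rgs18, known from platelets, megakaryocytes and other blood cells, had 2.41 and 3.02 CPM with SGA360+LPS, 2.66 and 3.50 CPM with LPS, and 18.3 and 16.5 CPM in vehicle. Both vehicle libraries lay above all 4 LPS-treated ones. The log2 fold change was −2.49 (SE 0.27) for LPS and −2.67 (SE 0.27) for SGA360+LPS against vehicle, and −2.39 and −2.57 without vehicle replicate 1. Of 6 megakaryocyte and platelet markers, 3 had counts, and Gp9 and Gp1bb were among those with no count in any library. Their summed level was 241 and 244 CPM with SGA360+LPS, 279 and 227 CPM with LPS and 197 and 185 CPM in vehicle, nearly all from Pf4. Ppbp, which was not tested, had 1 and 2 counts with SGA360+LPS, 2 and 0 with LPS and 1 and 2 in vehicle. The 2 tested markers of the list went opposite ways. Pf4 was called higher for LPS against vehicle (log2 fold change 0.43, SE 0.10; edgeR adjusted p = 0.00647). Itga2b was lower under LPS as Rgs18 was (log2 fold change for LPS against vehicle −1.28, SE 0.44; edgeR adjusted p = 0.0438). It had 2.79 and 2.24 CPM with SGA360+LPS, 1.60 and 2.08 CPM with LPS and 4.02 and 4.99 CPM in vehicle. The part of these cells in the Rgs18 values was not tested.

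Rgs1, which limits chemokine receptor signalling in lymphocytes, was the R4 member with the highest level. It had 59.9 and 68.4 CPM with SGA360+LPS, 60.3 and 70.2 CPM with LPS, and 94.1 and 97.2 CPM in vehicle. The LPS-treated groups overlapped each other and lay below vehicle. Its log2 fold change was −0.55 (SE 0.11) for LPS and −0.57 (SE 0.11) for SGA360+LPS against vehicle, and −0.55 and −0.58 without vehicle replicate 1. B cells also express Rgs1 strongly, and 5 of 6 B cell markers had counts, with Cd79b at 0. Their summed level was 29.0 and 31.6 CPM with SGA360+LPS, 31.8 and 33.1 CPM with LPS, and 31.8 and 33.4 CPM in vehicle, and their part in the Rgs1 values was not tested.

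Rgs16, which acts on Gi and Gq, was the tested member with higher values under LPS. It had 5.97 and 5.94 CPM with SGA360+LPS, 8.11 and 8.75 CPM with LPS, and 2.91 and 2.60 CPM in vehicle. The 3 groups did not overlap, and the SGA360+LPS libraries lay between the other groups. The log2 fold change was 1.61 (SE 0.30), or 3.06-fold higher, for LPS and 1.11 (SE 0.31) for SGA360+LPS against vehicle. Without vehicle replicate 1 the values were 1.71 and 1.21. These values rest on 25 to 80 counts per library. Of 6 neutrophil markers 4 had counts, with Ly6g and S100a9 at 0. Their summed level was 9.90 and 11.0 CPM with SGA360+LPS, 11.97 and 16.2 CPM with LPS and 4.69 and 9.26 CPM in vehicle. Of the 2 tested, edgeR called Camp higher for LPS against vehicle (adjusted p = 0.00281) and did not call S100a8 (adjusted p = 0.110). Camp had 19 and 14 counts with LPS and 0 and 0 in vehicle. The part of neutrophils in the Rgs16 values was not tested.

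In the R12 subfamily, Rgs10, known to limit inflammatory signalling in mouse microglia, had 67.6 and 64.1 CPM with SGA360+LPS, 65.4 and 57.4 CPM with LPS, and 134 and 117 CPM in vehicle. Rgs14, which combines G alpha and Ras binding, had 15.6 and 16.8 CPM with SGA360+LPS, 14.5 and 14.1 CPM with LPS, and 30.4 and 34.1 CPM in vehicle. With LPS, Rgs10 was 2.05-fold and Rgs14 2.26-fold lower than in vehicle, and neither had a vehicle library within the range of the treated ones. The log2 fold changes against vehicle were −1.04 (SE 0.11) for LPS and −0.94 (SE 0.10) for SGA360+LPS in Rgs10, and −1.17 (SE 0.15) and −0.99 (SE 0.15) in Rgs14. Without vehicle replicate 1, Rgs10 was at −0.92 with LPS and −0.82 with SGA360+LPS, and Rgs14 at −1.24 and −1.06.

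Rgs12, the largest of the listed transcripts at 5484 bases of exon, had 4.44 and 3.25 CPM with SGA360+LPS, 4.39 and 4.05 CPM with LPS, and 11.0 and 5.10 CPM in vehicle. Rgs12 has 2 transcript rows, of which 1 had counts, so its level may be understated. Its vehicle libraries were far apart. The log2 fold change for LPS against vehicle was −0.92 (SE 0.40). It was −0.26 without vehicle replicate 1 and −1.36 without vehicle replicate 2, so its size was set by the vehicle library used. For SGA360+LPS against vehicle the value was −1.06 (SE 0.41), and −0.40 without vehicle replicate 1 and −1.50 without vehicle replicate 2.

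**Figure D2:**
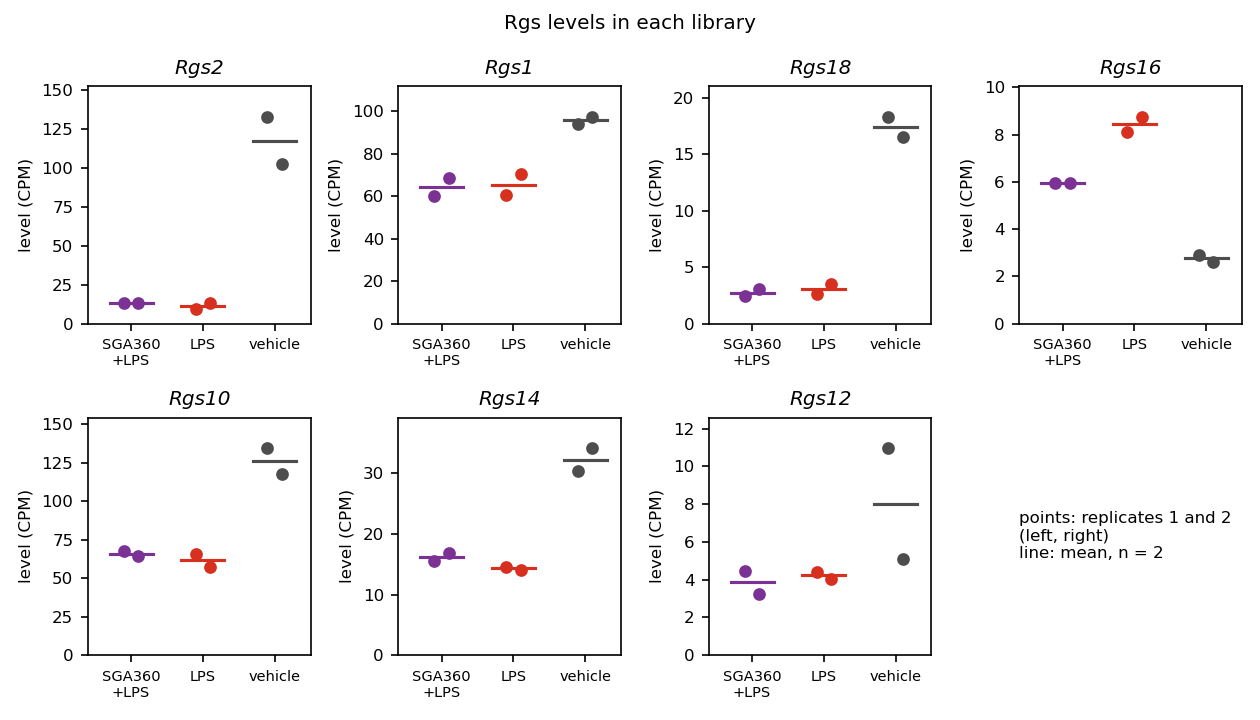
Level in CPM of the 7 tested Rgs genes in each library, with groups SGA360+LPS, LPS and vehicle from left to right, replicates 1 and 2 as points and the mean of n = 2 as a line. The 4 LPS-treated libraries lie below both vehicle libraries in 6 genes and above them in Rgs16, and the vehicle points of Rgs12 (11.0 and 5.10 CPM) are far apart.

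By edgeR's quasi-likelihood test with Benjamini-Hochberg adjusted p under 0.05, 36.4% of 9389 genes were called for LPS against vehicle, with 19.4% higher and 17.0% lower. Among the 7 tested members 6 were called, Rgs16 as higher and Rgs1, Rgs2, Rgs10, Rgs14 and Rgs18 as lower, and Rgs12 was not. The groups did not overlap in all 7, 1 higher and 6 lower, which held for 65.9% of all genes (33.1% higher and 32.7% lower). For SGA360+LPS against vehicle 33.1% of genes were called, 17.9% higher and 15.2% lower, with the same 6 members, and all 7 members were again without overlap, against 64.9% of genes (32.9% higher and 32.0% lower). The contrast chose the family and both comparisons share the vehicle libraries, so nothing is read from these counts. Without LPS replicate 1 Rgs1 was not called for LPS against vehicle (log2 fold change −0.42). For SGA360+LPS against vehicle Rgs1 was not called without SGA360+LPS replicate 1 (−0.46), nor Rgs16 with DESeq2 or without any of the 4 LPS-treated libraries (1.13 in each). Scaling by library totals moved the median log2 fold change of all genes to −0.14 for LPS against vehicle, and the directions of the 7 members stayed the same.

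The comparison of SGA360+LPS with LPS asks what the AHR ligand did under endotoxin, and it was not used to choose the family, although it shares the LPS libraries. None of the 7 tested members was called by edgeR's quasi-likelihood test (adjusted p = 1.00 for each), where 0.0746% of 9389 genes were called. At an unadjusted p under 0.05 the count was also 0 of the 7, against 2.94% of all genes. The limma-voom fit called 0 as well. DESeq2 also called 0, but it kept adjusted p-values for 2860 genes only. Members including Rgs2, Rgs12, Rgs14 and Rgs16 had none, so DESeq2 could not call them. The members' log2 fold changes ran from −0.50 to 0.21 with a median of −0.02, and the median of all genes was 0.0012. Of the 7, 3 had groups that did not overlap, Rgs2 and Rgs14 as higher and Rgs16 as lower, against 39.5% of all genes (19.9% higher and 19.6% lower).

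Rgs16 had the lowest of these values, −0.50 (SE 0.28, 95% interval −1.14 to 0.13), and 2.68% of all genes were lower. When vehicle was left out of the model its SE was 0.20, its unadjusted p from edgeR was 0.0225 and its adjusted p was 0.473. Both SGA360+LPS libraries lay under both LPS libraries. Rgs2 stood at 0.21 (SE 0.20, 95% interval −0.24 to 0.67) and Rgs14 at 0.18 (SE 0.16, 95% interval −0.17 to 0.54). For Rgs1 and Rgs10, the most highly expressed members, the intervals were narrower, at −0.27 to 0.22 and −0.14 to 0.34. The intervals were −0.89 to 0.52 for Rgs18 and −1.09 to 0.82 for Rgs12, which had few counts. A 2-fold difference lies outside the intervals of Rgs1, Rgs2, Rgs10, Rgs14 and Rgs18, while a 2-fold lower value lies inside those of Rgs12 and Rgs16. The intervals leave room for a difference in either direction in all 7.

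**Figure D3:**
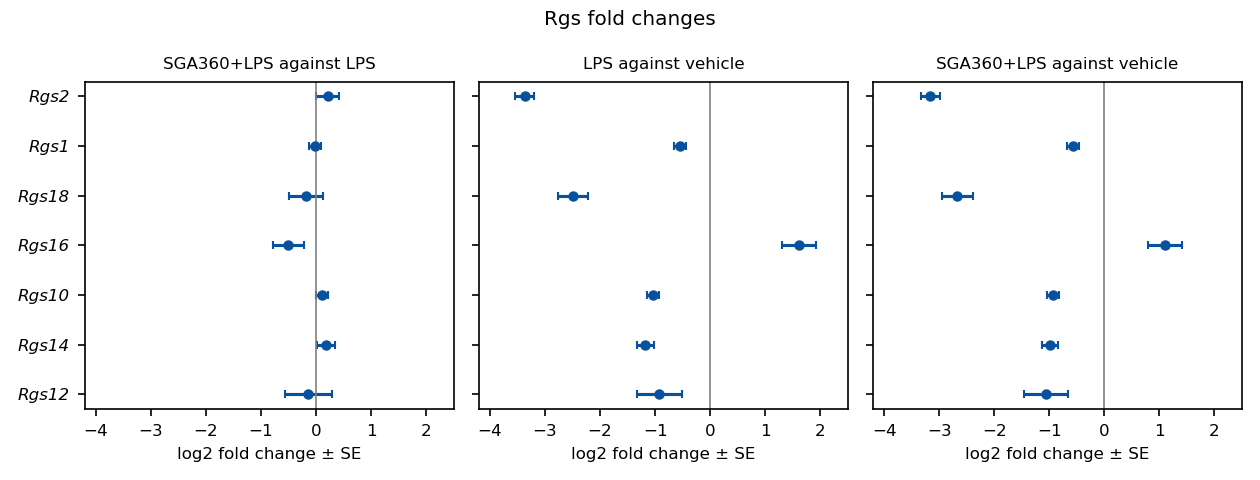
Log2 fold change with its standard error (bars) of the 7 tested Rgs genes for SGA360+LPS against LPS, LPS against vehicle and SGA360+LPS against vehicle, from edgeR over all 6 libraries. In the first comparison the points lie from −0.50 to 0.21, and against vehicle they run from −3.37 (Rgs2) to 1.61 (Rgs16) with LPS. Both comparisons against vehicle use the same vehicle libraries.

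Rgs18, Rgs21, Rgs1, Rgs13 and Rgs2 lie side by side on chromosome 1, and no other gene of the table falls in their span of 776 kb, from 143999338 to 144775421 in mm10. Rgs13 had 0 and 1 counts with SGA360+LPS, 1 and 0 with LPS and 0 and 0 in vehicle, and Rgs21 had none. The tested 3 were all lower with LPS than in vehicle, by unequal amounts (−3.37 for Rgs2, −0.55 for Rgs1 and −2.49 for Rgs18), with Rgs1 in the middle. The nearest tested genes outside were Trove2, encoding the RNA-binding protein Ro60, and Cdc73, a subunit of the PAF transcription complex. For LPS against vehicle edgeR gave −0.49 (SE 0.15; adjusted p = 0.0303) for Trove2 and 0.17 (SE 0.17; adjusted p = 0.463) for Cdc73. The Trove2 call was lost without LPS replicate 1 (−0.30, edgeR adjusted p = 0.301), without either SGA360+LPS library and with DESeq2. On the other side the next tested genes were Pla2g4a and Ptgs2, whose midpoints are 5891 and 6100 kb from the 5′ end of Rgs2. Rgs16 is also on chromosome 1, from 153740353 to 153745468, outside the cluster.

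**Figure D4:**
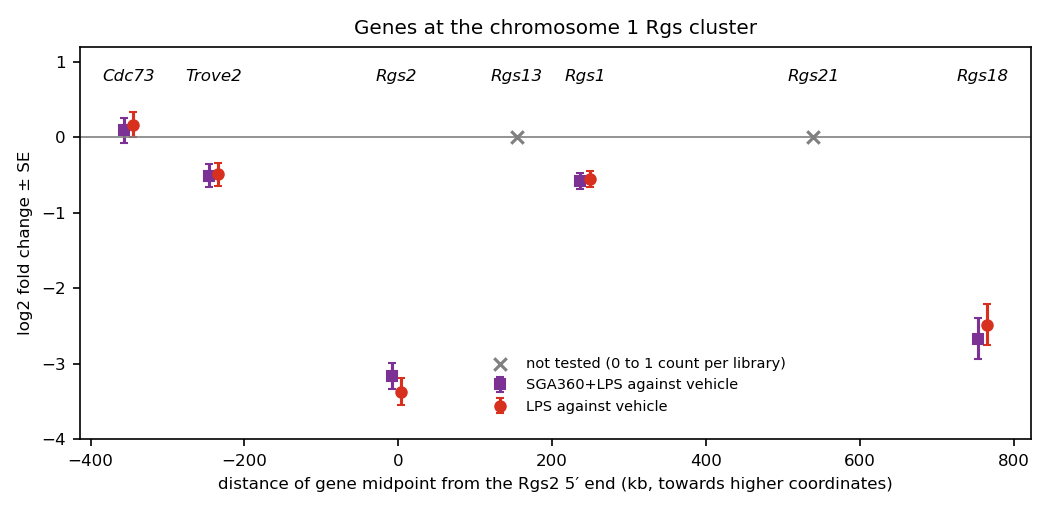
Log2 fold change with its standard error for genes at the Rgs cluster of chromosome 1, against the distance in kb of each gene's midpoint from the 5′ end of Rgs2, for SGA360+LPS (squares) and LPS (circles), each against vehicle. Rgs2, Rgs1 and Rgs18 are below 0, Rgs13 and Rgs21 were not tested, and Cdc73 lies above 0.

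By their mm10 transcripts, Rgs1 (NM_015811) occupies 144244669 to 144249104 and Rgs18 (NM_022881) 144752841 to 144775421 on chromosome 1, minus strand. Rgs10 (NM_026418) occupies 128373625 to 128418172 on chromosome 7, minus strand. Rgs14 (NM_016758) lies on chromosome 13, plus strand, between 55369732 and 55384687. Rgs12 (NM_173402) lies on chromosome 5, plus strand, between 34949448 and 35033593. All are annotated as protein-coding in GENCODE M21. The microRNA gene Mir3097 lies within Rgs12, and the annotated genes Gm15503 and Gm28513 overlap Rgs10 and Rgs16. No source used here says whether counting used strand, and reads of overlapping genes cannot be told apart.

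Of 13 further RGS family genes looked for, all were in the table and 7 had no count: Rgs6, Rgs7, Rgs8, Rgs17, Rgs20, Rgs21 and Rgsl1. Of these, Rgs6, Rgs7, Rgs17, Rgs20 and Rgs21 have several transcript rows, so the lack of counts does not show that they are unexpressed. Rgs4 alone passed the filter, with 1.78 and 2.24 CPM with SGA360+LPS, 2.13 and 3.94 CPM with LPS, and 2.57 and 1.46 CPM in vehicle. Its groups overlapped in every comparison, and edgeR gave −0.60 (SE 0.55; adjusted p = 1.00) for SGA360+LPS against LPS and 0.60 (SE 0.54; adjusted p = 0.428) for LPS against vehicle. The others (Rgs5, Rgs9, Rgs11, Rgs13 and Rgs22) had at most 10 counts in a library.

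Likeness to Rgs2 and Rgs1 was measured as the distance between log2 CPM of the 6 libraries, each gene centred on its own mean, over 7566 genes with a mean of at least 5 CPM. Among the nearest to Rgs2 were Hal, encoding histidine ammonia lyase (distance 0.274), and the chemokine receptor gene Cxcr4 (0.514), where the median gene was at 3.83. Cxcr4 had 15.6 and 17.8 CPM with SGA360+LPS, 10.4 and 12.03 CPM with LPS, and 130 and 139 CPM in vehicle. Among the nearest to Rgs1 were Heatr5a (0.0813) and D930015E06Rik (0.0914), with the median gene at 0.819. All points share the same libraries, so these distances only describe the pattern.

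The partners of RGS proteins were taken as 7 lists, of which only genes that passed the filter were tested. These were 9 of 13 G alpha subunits, 6 of 16 beta and gamma subunits and 8 of 14 other RGS homology proteins. Of the rest 3 of 10 modulators, 7 of 20 effectors, 8 of 18 cAMP genes and 26 of 35 receptors were tested. For SGA360+LPS against LPS edgeR called 0 genes in each list. Of the 67 tested genes 7 had an unadjusted p under 0.05, against 2.94% of all genes. These were Itpr3 and 6 receptor genes (Fpr1, Cx3cr1, Cxcr4, S1pr2, Adora2b and Gpr84). For LPS against vehicle, 2 of 9 tested G alpha subunits rose, 2 fell and 5 had no call, where 36.4% of all genes were called, 19.4% higher and 17.0% lower (median log2 fold change −0.04, against −0.0084 for all genes). Gnai2, the main Gi subunit of leukocytes, had 1030 ± 3.08 CPM with SGA360+LPS, 1036 ± 21.8 CPM with LPS and 1094 ± 82.9 CPM in vehicle (SD, n = 2; log2 fold change −0.08 for LPS against vehicle, SE 0.07; edgeR adjusted p = 0.401). Gna12, which signals to the actin cytoskeleton, fell by 0.78 (SE 0.09) and Gna15, a Gq-class subunit of blood cells, fell by 0.54 (SE 0.15), while Gna13 rose by 0.36 (SE 0.07). Without LPS replicate 2 the count called was 2.

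Of 6 tested G beta and gamma subunits 2 rose and 1 fell with LPS, beside 36.4% of all genes called (median 0.29). Gng11 fell by 1.30 (SE 0.32) on the log2 scale, and Gng5 and Gnb2 rose by 0.34 (SE 0.07) and 0.30 (SE 0.08). These 2 rises were not called when libraries were scaled by their totals, which left 1 call. Of 8 other proteins with an RGS homology domain 3 rose and 2 fell, beside 36.4% of all genes called (median 0.16), with 2 called in all without LPS replicate 1 and 3 without LPS replicate 2. Snx25, a sorting nexin, rose by 0.97 (SE 0.13), and Snx14 and the guanine nucleotide exchange factor gene Arhgef11 fell by 0.65 (SE 0.15) and 0.54 (SE 0.12). Without vehicle replicate 1 Snx14 was at −0.40. From the list of arrestins and other modulators 3 genes were tested and none was called, beside 36.4% of all genes called (median −0.05). That count changed when a library was left out, and DESeq2 called 0. The 3 were Ric8, a chaperone of G alpha subunits, with Gpsm2 and Gpsm3, so no arrestin gene was tested.

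Of 7 tested G protein effectors 2 rose and 2 fell with LPS against vehicle, beside 36.4% of all genes called (median 0.15). Pik3r5, the adaptor of the G protein-activated PI3 kinase gamma, had 734 and 753 CPM with SGA360+LPS, 706 and 693 CPM with LPS, and 249 and 301 CPM in vehicle (log2 fold change for LPS 1.35, SE 0.09; edgeR adjusted p = 9.48e-07). The calcium channel genes Itpr1 and Itpr3, which open downstream of phospholipase C, fell by 0.93 (SE 0.14) and 0.68 (SE 0.12). Of 8 tested cAMP branch genes 1 rose and 1 fell, beside 36.4% of all genes called (median −0.19). The phosphodiesterase gene Pde3b fell by 1.06 (SE 0.18), and Pde4b, with 5 transcript rows, had 0 and 2 counts in vehicle and at most 18 in any library, so its rise (1 call fewer without any of the 4 LPS-treated libraries) is uncertain. Without vehicle replicate 2 the cAMP count was 7.

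Of 26 tested G protein-coupled receptors of macrophages 8 rose and 15 fell with LPS, where 19.4% of all genes were called higher and 17.0% lower (median −1.0), with 19 to 25 receptors called over the alternatives. The largest called folds were those of the formyl peptide receptor genes Fpr2 (5.95, SE 0.20) and Fpr1 (5.47, SE 0.12) and of Gpr84, a receptor for medium-chain fatty acids (5.10, SE 0.10). Without vehicle replicate 1, the genes of the 7 lists named here as risen or fallen kept their direction and their call.

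**Figure D5:**
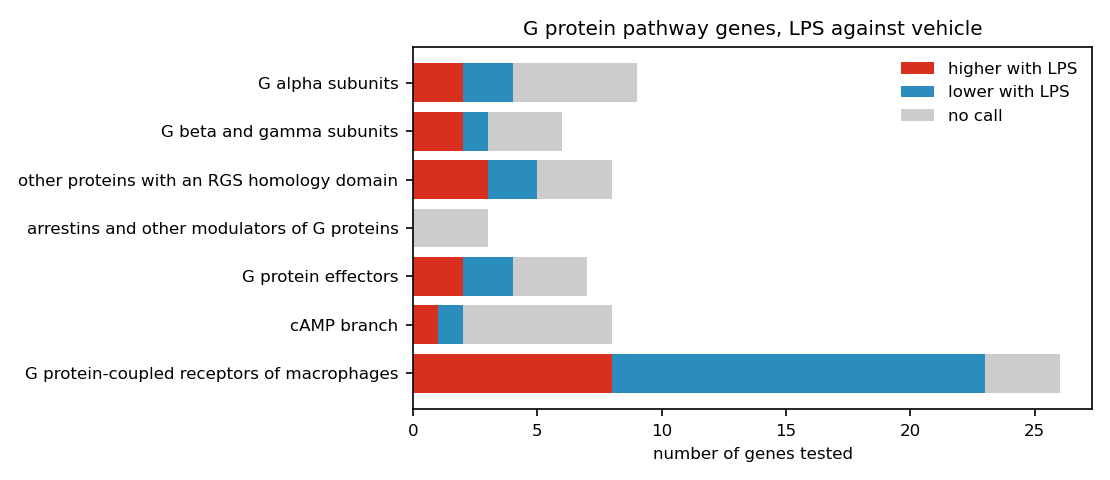
Number of tested genes of 7 lists around G protein signalling that edgeR called higher (red) or lower (blue) with LPS against vehicle, or did not call (grey). The receptor list has 8 higher and 15 lower of 26, and the list of arrestins and other modulators has no call among 3.

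For comparison, Il1b, Ptgs2 and Cyp1b1 were called lower with SGA360+LPS than with LPS by edgeR. Ptgs2, the inducible cyclooxygenase gene, had 136 and 128 CPM with SGA360+LPS and 253 and 264 CPM with LPS (log2 fold change −0.97; adjusted p = 0.00223). These calls were lost, with 0 of all genes called, without SGA360+LPS replicate 1, without SGA360+LPS replicate 2 and without LPS replicate 2. The Ptgs2 fold change lies outside the 95% interval of Rgs1, Rgs2, Rgs10, Rgs14 and Rgs18.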

How the data were processed

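The deposited data are read counts (whole numbers, not normalized) in 1 table with 34751 RefSeq transcript rows, gene symbols, positions and exon lengths for 6 libraries. The submitters' processing notes name mm10 as the build, HTSeq 0.5.4p3 and TopHat2 2.0.13. No source used here gives the strand setting or annotation version. The exon length in bases is another column that the authors deposited, used for CPM per kb. Positions in the table start 1 base early and are given plus 1.

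Rows were summed per symbol. Genes were kept with filterByExpr (minimum count 10) and tested with glmQLFit and glmQLFTest of edgeR 4.0.16 in R 4.3.3, with TMM, in 1 model of the 3 groups with 3 residual degrees of freedom. P-values were Benjamini-Hochberg adjusted over 9389 genes. Each SE was taken as the size of the log2 fold change over the root of its F statistic. The fits were tested on simulated data. Alternatives were other scalings, filters, DESeq2 1.42.0, limma-voom (limma 3.58.1), the top row per symbol, each library left out, a replicate block and a model without vehicle. No replicate pair agreed within sampling noise.

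The members and gene lists were chosen with earlier results of these data known. Named are the members, up to 3 called genes per list by fold with a mean of at least 1 CPM, the 3 nearest genes to Rgs1 and Rgs2, the neighbours of the chromosome 1 cluster and 3 anchor genes. Gnai2 and Ric8 are named as abundant list members. Some genes that this rule names are not reported here.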

Additional observations from a re-analysis of the deposited data

How the results depend on the processing

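For SGA360+LPS against LPS, 7 genes were called, against 17 with no filter on low counts, 11 with DESeq2, 12 when vehicle was left out of the model, and 0 to 16 with 1 library left out. No Rgs member was called in any of these fits, although DESeq2 gave no adjusted p for members including Rgs2, Rgs12, Rgs14 and Rgs16. For LPS against vehicle, 3413 genes were called and 2091 to 5494 with 1 library left out, and for SGA360+LPS against vehicle 3107 and 1831 to 5315. Members called numbered 6 of the 7 tested in both comparisons against vehicle, and the number changed over the alternatives. Of all 9389 genes 36.4% were called for LPS and 33.1% for SGA360+LPS against vehicle. The family was chosen on LPS against vehicle, so nothing is read from the member counts. With 1 library left out, 3 SGA360+LPS against LPS values changed sign: the range was −0.13 to 0.096 for Rgs1 (above 0 without SGA360+LPS replicate 1 or LPS replicate 2), −0.37 to 0.074 for Rgs12 (above 0 without SGA360+LPS replicate 2) and −0.36 to 0.039 for Rgs18 (above 0 without LPS replicate 2). Against vehicle no member changed direction under any alternative. Rgs16 lost its call for SGA360+LPS against vehicle with DESeq2 and without any of the 4 LPS-treated libraries (log2 fold change 1.13 in each). With the replicate number as a block, 5, 3434 and 3136 genes were called for SGA360+LPS against LPS, LPS against vehicle and SGA360+LPS against vehicle, and the members' calls were unchanged in number; deviations of same-numbered libraries correlated at 0.20, 0.014 and −0.0037 between groups, and nothing in the labels says that the numbers pair libraries. Scaling by library totals was added after seeing the data. Low counts limit Rgs3 and Rgs19, which have several transcript rows and could not be tested, as well as Rgs12, Rgs16 and Rgs18. Rgs12 also has 2 transcript rows.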
